A study of Homo sapiens with 6 samples.

Results

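The cytosolic ribosome is assembled from ribosomal RNA and a fixed set of proteins, most of them encoded by a single expressed gene each. The genes described here are those whose symbol is RPL or RPS with a number, with an optional A, B, X, L or L1 ending, together with RPLP0, RPLP1, RPLP2 and RPSA. Kinases named RPS6K, Y-linked copies, pseudogenes and antisense rows were left out. The rule found 84 genes among the 26485 gene symbols measured: 46 large subunit (60S) genes, 31 small subunit (40S) genes and 7 paralogs with an L or L1 ending, which resemble a parent gene elsewhere in the genome.

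The study measured messenger RNA by bulk RNA sequencing in PC-9, a human non-small cell lung cancer line with mutant EGFR. Of the 6 samples, 3 came from cells stably carrying a control short hairpin RNA (shControl) and 3 from cells stably carrying a hairpin against IFITM3 (shIFITM3). IFITM3 encodes an interferon-induced membrane protein. All cells were grown in serum-containing RPMI, and no drug is given for any of the samples. One IFITM3 hairpin is described, so an effect of that sequence on other transcripts cannot be told apart from loss of IFITM3. The control columns are named for "EV" while the sample titles say shControl, so whether the control carries a hairpin sequence or a vector alone is not given, nor is whether either line is a clone or a pool. The 3 samples of a group are labelled biological replicates. Nothing says that they were separate cultures, so p-values measure the spread between these samples.

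Ribosomal protein genes are among the most strongly transcribed genes in dividing cells, and most of their products are needed in equal numbers in each ribosome. Their messenger RNAs begin with a 5′ terminal oligopyrimidine (TOP) tract, a C followed by a run of C and T (U in the RNA). Through this tract their translation is controlled by mTOR and the RNA-binding protein LARP1. Proteins made in excess of assembled ribosomes are usually degraded. When assembly fails, RPL5 and RPL11 with 5S ribosomal RNA can bind MDM2 and raise p53.

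The sequence around the annotated start shows the feature that most of these genes share and that the choice of members did not use. The windows below hold 15 bases on either side of the start in RefSeq (GRCh38.p14), written 5′ to 3′ on the strand of the gene. Capitals mark the longest run that opens with C and holds only C and T, begins within 10 bases of the start and has at least 5 bases. The first set shows members with large falls in IFITM3-depleted cells, the second members whose level did not pass the test, and the last a paralog and its parent that moved in opposite directions.
RPS28 (chr19:8321481-8321510, plus strand): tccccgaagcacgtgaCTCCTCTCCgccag
RPS26 (chr12:56041903-56041932, plus strand): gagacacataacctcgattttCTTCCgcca
RPS16 (chr19:39435935-39435964, minus strand): gtggcccctagCTTTCCTTTTCCggttgcg
RPS18 (chr6:33272060-33272089, plus strand): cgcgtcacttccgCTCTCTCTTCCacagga
RPL12 (chr9:127451392-127451421, minus strand): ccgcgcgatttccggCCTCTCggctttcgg
RPL3 (chr22:39319609-39319638, minus strand): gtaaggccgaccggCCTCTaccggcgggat
RPL21 (chr13:27251543-27251572, plus strand): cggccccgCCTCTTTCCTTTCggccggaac
RPL41 (chr12:56116618-56116647, plus strand): cggaacttcgCCTTTCTCTCggccttagcg
RPL13A (chr19:49487593-49487622, plus strand): cgacaaaaCCTCCTCCTTTTCCaagcggct
RPS6 (chr9:19380222-19380251, minus strand): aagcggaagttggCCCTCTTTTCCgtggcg
RPLP1 (chr15:69452803-69452832, plus strand): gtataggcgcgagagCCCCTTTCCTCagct
RPS27 (chr1:153990747-153990776, plus strand): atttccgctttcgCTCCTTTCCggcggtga
RPS27L (chr15:63157463-63157492, minus strand): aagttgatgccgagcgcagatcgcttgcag

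A start entry was found for 62 of the 77 large and small subunit genes. A run of at least 5 bases was present in 57 of them (91.9%), and one of at least 8 bases in 49 (79%). Over 15843 protein-coding genes the shares were 41.1% and 12.8%. RPS27L, the only member that rose, had no such run in its window. RPL22L1 alone of the 5 paralogs with an entry had one. In windows from 250 bases before to 50 bases after the start, 4 other motifs were searched on both strands. The ETS-type word CCGGAAG stood in 35.5% of the subunit genes and 16.5% of all protein-coding genes. The YY1-type word AAGATGGC stood in 9.68% and 4.66%, the SP1-type word GGGCGG in 58.1% and 64.3%, and the TATA box TATAAA in 8.06% and 12.4%. A match describes letters in a window and not a bound site.

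Depth and identity of the libraries were checked first. Library totals were 21342028 to 27493145 counts in 5 libraries and 77228760 in shControl 2, the deepest. IFITM3 stood at 57.0, 60.5 and 62.8 CPM (counts scaled to a common library size) in the control samples and at 10.4, 12.9 and 9.75 CPM in the knockdown samples, a log2 fold change of -2.45 (SE 0.08), in the direction of the labels. Epithelial marker genes, all 6 tested, summed to 9310 to 9431 CPM in the control group and 7846 to 8058 CPM in the knockdown group. Among them 1 rose (EPCAM, 0.09 on the log2 scale) and 3 fell (KRT8, -0.50, KRT18, -0.29, and CDH1, -0.60). All 5 lung lineage markers (NKX2-1, NAPSA, SFTPB, SFTPC and SFTPA1) were too low to test, with summed levels of 0.141 to 0.522 CPM over the 6 samples. Markers of other cell types summed to 75.3 to 82.6 CPM in the control group and 84.2 to 92.6 CPM in the knockdown group, and 3 of 9 could be tested: PECAM1 fell (-1.66), CD68 (0.20) and COL1A1 (0.29) rose, and DCN was at 0 in every library. Whether these differences have a part in the results below was not tested.

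IFITM3-depleted cells held slightly less ribosomal protein messenger RNA, in both subunits. The 46 large subunit genes took 2.59%, 2.68% and 2.65% of all counts in the control samples and 2.48%, 2.50% and 2.47% in the knockdown samples. That is 2.64% ± 0.0437 against 2.48% ± 0.0128 (SD, n = 3 each). The 31 small subunit genes took 1.66%, 1.70% and 1.68% against 1.55%, 1.53% and 1.55%, or 1.68% ± 0.0174 against 1.54% ± 0.0134 (SD, n = 3 each). Every control sample lay above every knockdown sample for both subunits. The summed large subunit counts were 1.56, 1.58 and 1.58 times the small subunit counts in the control samples and 1.60, 1.64 and 1.59 times in the knockdown samples, groups that did not overlap. The small subunit sum includes RPS2, which fell from a mean of 1955 to 1581 CPM, and RPS28, from 170 to 88.9 CPM. The part of these genes in the ratio was not tested. In bulk samples, a change in the mix of cells and a change in RNA per cell cannot be told apart, and a share of counts says nothing of the total RNA of a cell.

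**Figure D1:**
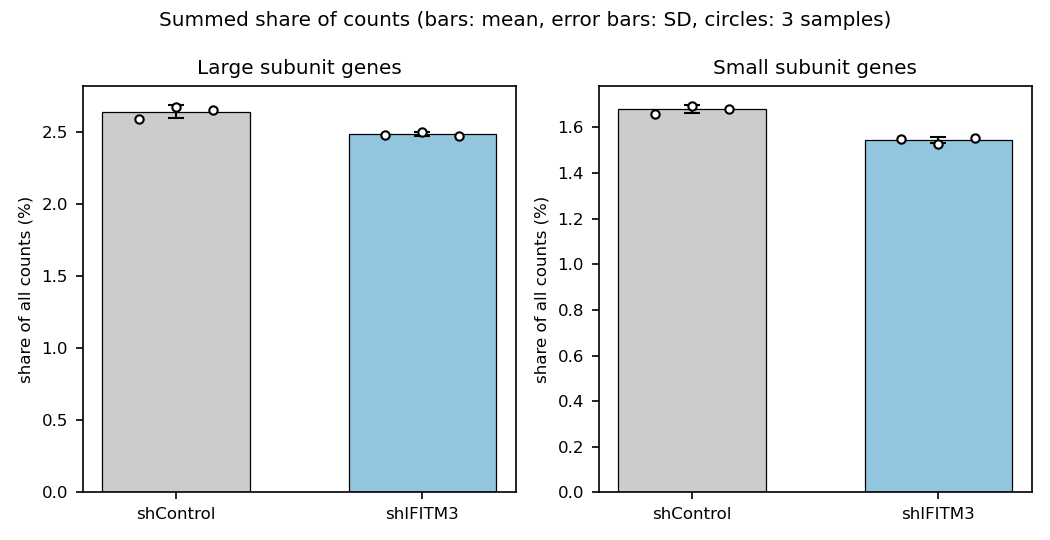
Share of all counts taken by the 46 large subunit genes (left) and the 31 small subunit genes (right), in percent, for each of 3 shControl and 3 shIFITM3 samples. Bars are means, error bars SDs and circles samples; the knockdown samples lie below the control samples in both panels, at means of 2.48% against 2.64% and 1.54% against 1.68%.

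Gene by gene, the shift was small and almost entirely in the downward direction. Each gene was tested with edgeR's quasi-likelihood test on the counts, and a gene was called at a Benjamini-Hochberg adjusted p under 0.05 over all 14018 genes tested. In the large subunit 28 of 46 genes fell, 18 did not pass the test and none rose. In the small subunit 21 of 31 fell, 10 did not pass and none rose. The comparison as a whole was one of many changes: 56.1% of all tested genes were called, 28.4% lower and 27.7% higher. Abundance matters here, since 72 of the 77 subunit genes average 7 or more on the log2 CPM scale. Of all 1837 genes at that level 48.1% fell, against 48 of those 72 subunit genes (66.7%). No large or small subunit gene was higher at an unadjusted p under 0.05 in edgeR, and none was called higher by DESeq2 or limma-voom.

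The changes were small in size. The median log2 fold change was -0.09 over the large subunit genes, a level 6.24% below control, and -0.13 over the small subunit genes, 8.58% below control. With offsets for gene length and GC content the medians were -0.1567 and -0.16, beside -0.06 over all tested genes, so the 2 subunits then lay close together. The median was -6.3e-05 over all tested genes and -0.07 over the 1837 abundant genes. The estimate lay below 0 for 42 of 46 large and 30 of 31 small subunit genes, against 50.02% of all tested genes and 60.6% of the abundant ones. Of the 77 subunit genes, 1 (RPS28) moved by more than 1.5-fold, while 18.4% of all tested genes and 10.7% of the abundant ones did. Control and knockdown samples did not overlap, with the knockdown lower, for 28 large and 19 small subunit genes, and for 30.8% of all tested genes and 905 of the 1837 abundant ones. The estimates rest on many reads and have a median SE of 0.03 on the log2 scale, so falls of 5% to 6% such as those of RPS24 (5.65% below control, adjusted p = 0.0427) and RPS7 (5.27%, adjusted p = 0.0347) passed. Such calls depended on the fit: that on RPS24 was lost in 8 and that on RPS7 in 6 of 18 alternative fits.

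**Figure D2:**
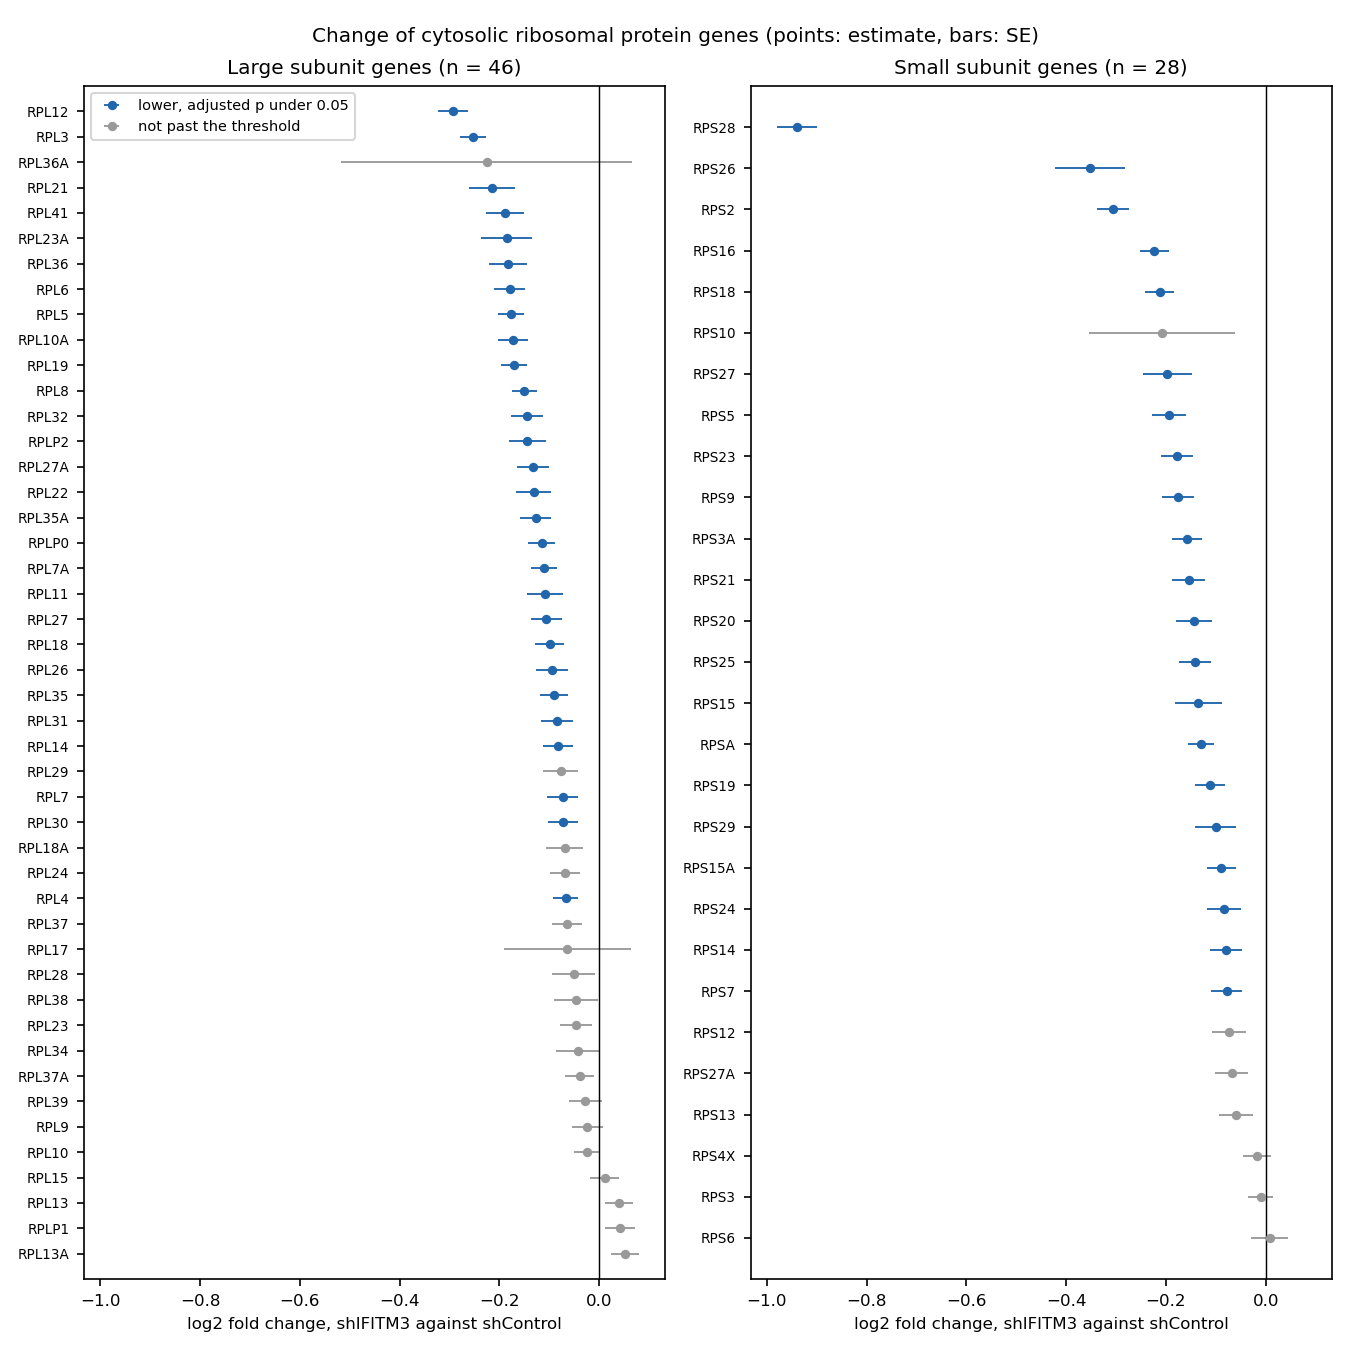
Log2 fold change (shIFITM3 against shControl) of the 46 large subunit genes (left) and 28 of the 31 small subunit genes (right), with the SE as a bar; blue points passed an adjusted p under 0.05. The points lie mostly between 0 and -0.25, no point right of 0 passed the test, and RPS28 stands apart at -0.94.

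RPS28 had by far the largest fall among the 77 subunit genes. RPS28 encodes a small protein of the 40S head beside the channel through which messenger RNA leaves the decoding site. Its level was 163, 176 and 172 CPM in the control samples and 87.7, 89.7 and 89.4 CPM in the knockdown samples. The 3 knockdown values lie within 2 CPM of each other, and the fitted level was 52.1% of control. The log2 fold change was -0.94 (SE 0.04, adjusted p = 1.66e-15 by edgeR), and without the deepest library, shControl 2, it was -0.91. The gene lies at chr19:8321496-8323340 (GRCh38.p14, RefSeq). Of its exon bases, 27.5% overlap KANK3, an ankyrin repeat gene on the opposite strand, whose row held only 0.727 to 1.95 CPM and was called higher (0.82, SE 0.32, adjusted p = 0.0342). The strand setting of the counting is not given. Other tested genes found by RefSeq symbol to lie wholly within 100 kb did not pass the test. These were CD320 (-0.03), NDUFA7 (-0.10), ANGPTL4 (-0.12), RAB11B-AS1 (-0.01) and RAB11B (0.01). Genes that only reach into this window were not looked at.

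RPS26 and RPS2 followed RPS28 in the small subunit. RPS26 contacts messenger RNA upstream of the start codon, and its level was 164, 213 and 158 CPM in the control samples and 138, 148 and 136 CPM in the knockdown samples. The log2 fold change was -0.35 (SE 0.07, adjusted p = 0.000158). The control value of 213 CPM comes from shControl 2, and without that library the change was -0.19 (adjusted p = 0.000916). RPS2, at the entry of the messenger RNA channel, had the highest level per exon length among the small subunit genes, 1681 CPM per kb in the control group and 1359 CPM per kb in the knockdown group. It fell from 1870, 2042 and 1952 CPM to 1607, 1639 and 1496 CPM, a log2 fold change of -0.31 (SE 0.03, adjusted p = 1.86e-08). No knockdown sample reached the lowest control sample in either gene.

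RPS16 and RPS18, head proteins on the side of the small subunit that faces the transfer RNAs, complete the largest falls there. RPS16 stood at 551, 568 and 549 CPM in the control samples and 471, 478 and 479 CPM in the knockdown samples (log2 fold change -0.22). RPS18 stood at 733, 710 and 729 CPM and then at 642, 602 and 630 CPM (-0.21). Both sets of 3 were tight and well apart. By position on the subunit, 9 of 14 head genes fell, with a median of -0.14, and 12 of 17 body and platform genes fell, with a median of -0.09. Of all 77 subunit genes 49 (63.6%) fell, with a median of -0.10, beside 28.4% of all tested genes. Whether position is related to the change was not tested. Head genes that did not pass the test include RPS3 and RPS27A, and body and platform genes that did not include RPS4X and RPS6. No gene of either list was higher at an unadjusted p under 0.05 in edgeR, nor called higher by DESeq2 or limma-voom. That held for all 77 subunit genes.

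In the large subunit the largest fall was that of RPL12, which sits at the base of the stalk that recruits translation factors. RPL12 stood at 658, 696 and 666 CPM in the control samples and at 557, 551 and 541 CPM in the knockdown samples, a log2 fold change of -0.29 (SE 0.03, adjusted p = 8.10e-09). The groups were separated by about 100 CPM. The other stalk proteins did not all move alike. RPLP0, the stalk scaffold, fell from 1351, 1435 and 1401 CPM to 1307, 1309 and 1252 CPM (-0.12). RPLP2 fell from 247, 251 and 238 CPM to 231, 211 and 225 CPM (-0.14). RPLP1, which pairs with RPLP2 on the ribosome, was at 646, 681 and 675 CPM and at 672, 713 and 676 CPM (0.04, adjusted p = 0.260), with overlapping groups. Thus 3 of 4 stalk genes fell, beside 63.6% of all 77 subunit genes, 28.4% of all tested genes and 48.1% of the abundant ones. A difference between RPLP1 and RPLP2 was not tested.

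RPL3, which reaches towards the peptidyl transferase centre, fell from 1205, 1225 and 1246 CPM to 1018, 1052 and 1015 CPM (-0.25, SE 0.03, adjusted p = 1.30e-08). The knockdown samples were all more than 150 CPM below the lowest control sample. Of 5 genes whose proteins lie near the catalytic centre or the exit site for transfer RNA, RPL3, RPL8 (-0.15) and RPL10A (-0.17) fell, and RPL10 (-0.02) and RPL36A did not pass the test. Around the tunnel through which the new protein leaves, 6 of 8 genes fell, with a median of -0.09. Both lists are drawn from the 77 subunit genes, of which 63.6% fell, beside 28.4% of all tested genes and 48.1% of the abundant ones. In the tunnel list, 2 genes did not pass the test. These were RPL39 (-0.03) and RPL17 (-0.06).

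RPL23A, at the tunnel exit where signal recognition particle docks, had the largest spread among the leading large subunit falls. It stood at 409, 492 and 418 CPM in the control samples and 361, 408 and 394 CPM in the knockdown samples (-0.19, SE 0.05, adjusted p = 0.00333 by edgeR). The highest value is again that of shControl 2. Without that library the change was -0.09 and the call was lost (adjusted p = 0.0637), and DESeq2 did not call the gene either (adjusted p = 0.125). RPL21 stood at 240, 283 and 248 CPM and at 228, 216 and 222 CPM (-0.21), and without shControl 2 its change was -0.13 with the call kept. RPL41, which encodes a very short peptide at the subunit interface, went from 448, 453 and 437 CPM to 397, 360 and 416 CPM (-0.19).

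**Figure D3:**
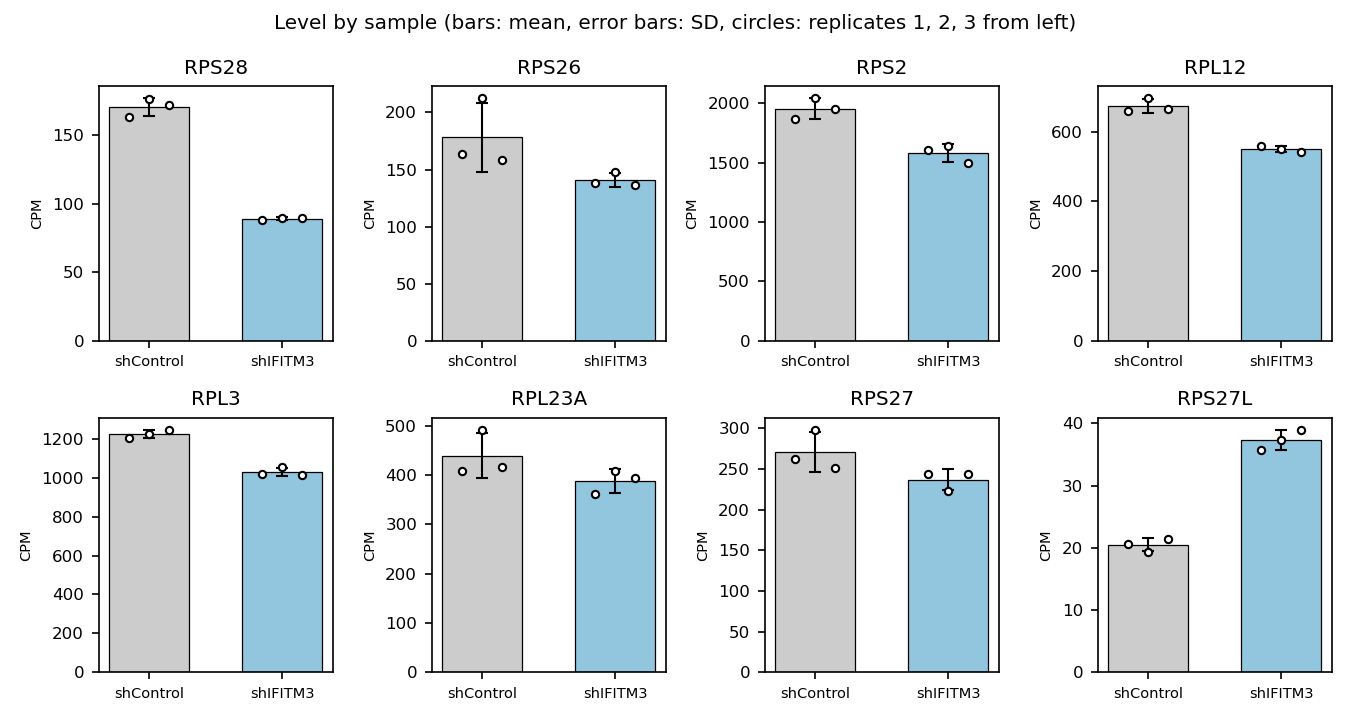
Level in CPM of 7 subunit genes and the paralog RPS27L in each sample; bars are means, error bars SDs and circles replicates 1, 2 and 3 from the left. RPS28 falls from a mean of 170 to 88.9 CPM, RPS26 and RPL23A have 1 high control sample (shControl 2), and RPS27L rises from 20.5 to 37.3 CPM while RPS27 falls.

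The pair that signals failed ribosome assembly to MDM2 also fell. RPL5 stood at 835, 827 and 842 CPM in the control samples and 747, 721 and 747 CPM in the knockdown samples (-0.18, SE 0.03, adjusted p = 5.30e-06). RPL11 stood at 529, 536 and 513 CPM and at 498, 452 and 514 CPM (-0.11, adjusted p = 0.0149), with overlapping groups. The call on RPL11 was lost without shControl 2 (adjusted p = 0.0569) and without shIFITM3 2 (-0.06, adjusted p = 0.117). Of 4 genes whose proteins are known to bind MDM2, RPL26 (-0.10) fell too and RPL23 (-0.05) did not pass the test. Of all 77 subunit genes 63.6% fell, beside 28.4% of all tested genes and 48.1% of the abundant ones. Without shIFITM3 2 the change of RPL26 was -0.06 and its call was lost.

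Among 19 genes mutated in Diamond-Blackfan anaemia, an inherited failure of red cell production, 16 fell and none rose, with a median of -0.10. The list is drawn from the 77 subunit genes, of which 49 fell with the same median, and 28.4% of all tested genes fell. RPS19, the gene most often mutated in it, stood at 437, 455 and 450 CPM in the control samples and 407, 421 and 415 CPM in the knockdown samples (-0.11). RPL15 was among those that did not pass. RPSA, also known as the laminin receptor precursor, fell from 977, 978 and 972 CPM to 892, 910 and 875 CPM (-0.13, SE 0.03, adjusted p = 0.000169). RPL7A, the large subunit gene with the highest level per exon length (1261 CPM per kb in the control group and 1169 CPM per kb in the knockdown group), fell from 1105, 1151 and 1116 CPM to 1048, 1047 and 1029 CPM (-0.11).

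Several abundant members did not pass the test, with estimates near 0 for most of those named here. RPS6, the small subunit protein phosphorylated by S6 kinases, stood at 584, 568 and 594 CPM in the control samples and 584, 545 and 626 CPM in the knockdown samples (0.01, SE 0.04, adjusted p = 0.870). RPS3, at the messenger RNA entry, stood at 1228, 1211 and 1243 CPM and at 1217, 1202 and 1235 CPM (-0.01, SE 0.03). RPL13A, also known for a role outside the ribosome in silencing inflammatory transcripts, stood at 846, 903 and 888 CPM and at 922, 898 and 915 CPM (0.05, SE 0.03, adjusted p = 0.125). The groups overlap in all 3 genes. Without shControl 2, RPL13A was called higher (0.07, adjusted p = 0.04997), the only subunit gene called higher in any alternative fit. RPL13 (0.04), RPL15 (0.01), RPL10 (-0.02) and RPS4X (-0.02) did not pass the test. RPS27A, made as a fusion with ubiquitin, stood at 373, 375 and 381 CPM and at 356, 346 and 376 CPM (-0.07, adjusted p = 0.0835).

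The rows of RPL36A, RPL17 and RPS10 were far below the rest. RPL36A, the lowest large subunit gene per exon length (1.37 CPM per kb in the control group and 1.15 in the knockdown group), held 1.2 to 2.36 CPM over the 6 samples. RPL17 held 6.74 to 8.79 CPM, and RPS10, the lowest small subunit gene (5.19 and 4.58 CPM per kb), held 5.41 to 7.98 CPM. RPL36A has an expressed copy, RPL36AL, and the proteins of all 3 genes are usual parts of the ribosome. Each shares exon bases on the same strand with a readthrough gene that joins it to its neighbour: 26.6% of RPL36A with RPL36A-HNRNPH2, 53.5% of RPL17 with RPL17-C18orf32 and 71.1% of RPS10 with RPS10-NUDT3. All 3 readthrough rows are at 0 counts in every library. How reads from shared exons were assigned is not given, and these 3 values cannot be read as the level of the gene.

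Of the 7 paralogs, RPS27L went against its parent. RPS27L is a target of p53 and differs from RPS27 in few amino acids. It rose from 20.6, 19.4 and 21.5 CPM in the control samples to 35.8, 37.3 and 39.0 CPM in the knockdown samples (0.87, SE 0.07, adjusted p = 1.09e-10 by edgeR). RPS27 fell from 263, 298 and 251 CPM to 244, 223 and 244 CPM (-0.20, SE 0.05, adjusted p = 0.00133). Without shControl 2 the change of RPS27 was -0.12 (adjusted p = 0.0262) and that of RPS27L 0.83, and DESeq2 did not call RPS27 (adjusted p = 0.0561). The ratio of RPS27L to RPS27 was 2.08 times as high in the knockdown group as in the control group, and its values did not overlap between groups. A two-sided exact permutation test gave p = 0.1, the smallest that 3 against 3 samples allow.

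The coding sequences of the pair show how reads can be told apart. Both have 255 bases (GENCODE release 29 transcripts) and 199 of them (78%) are identical. Capitals mark the 56 positions that differ, which are spread along the whole length.
RPS27L: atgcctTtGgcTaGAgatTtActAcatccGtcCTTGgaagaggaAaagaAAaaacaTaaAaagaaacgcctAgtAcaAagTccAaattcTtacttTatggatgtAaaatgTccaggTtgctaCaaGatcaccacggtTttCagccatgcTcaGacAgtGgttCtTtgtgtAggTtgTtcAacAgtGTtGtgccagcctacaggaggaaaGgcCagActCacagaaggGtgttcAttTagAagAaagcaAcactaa
RPS27: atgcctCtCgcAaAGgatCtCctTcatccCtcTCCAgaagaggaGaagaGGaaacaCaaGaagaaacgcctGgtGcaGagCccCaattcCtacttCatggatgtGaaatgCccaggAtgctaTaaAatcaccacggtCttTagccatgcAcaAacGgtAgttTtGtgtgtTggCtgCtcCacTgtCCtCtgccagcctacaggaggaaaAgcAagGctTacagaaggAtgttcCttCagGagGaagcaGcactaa

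RPL22L1 and RPL26L1 fell together with their parents, RPL39L fell while its parent did not pass the test, and RPL7L1 did not pass. RPL22L1, the paralog of RPL22, fell from 69.1, 69.9 and 64.9 CPM to 61.6, 54.9 and 58.6 CPM (-0.22), and RPL22 fell by 0.13. RPL26L1 fell from 47.9, 48.3 and 48.4 CPM to 40.4, 41.4 and 45.1 CPM (-0.19), and RPL26 fell by 0.10. RPL39L, best known from testis, fell from 62.2, 65.7 and 63.7 CPM to 56.3, 57.7 and 52.7 CPM (-0.20, SE 0.05), while RPL39 did not pass (-0.03, SE 0.03). RPL7L1, a nucleolar relative of RPL7, stood at 106, 102 and 103 CPM and at 108, 100 and 97.1 CPM (-0.02). RPL7 itself passed narrowly (-0.07, adjusted p = 0.04983), and its call was lost in 12 of 18 alternative fits. The ratios of RPL22L1, RPL26L1, RPL39L and RPL7L1 to their parents gave exact permutation p-values of 0.2, 0.1, 0.1 and 0.5. RPL10L, an intronless copy of RPL10, was at 0 counts in all 6 samples, and RPL3L, the heart and muscle form of RPL3, had 0, 0 and 0 counts against 3, 2 and 0. Both were left untested, and 3 counts correspond to 0.039 to 0.141 CPM depending on the library.

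RPL39L and RPL39 differ at 8 of 156 coding bases (94.9% identical), marked in capitals.
RPL39L: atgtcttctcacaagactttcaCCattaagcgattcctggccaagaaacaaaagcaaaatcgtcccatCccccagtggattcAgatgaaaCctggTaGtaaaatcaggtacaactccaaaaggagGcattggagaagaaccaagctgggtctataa
RPL39: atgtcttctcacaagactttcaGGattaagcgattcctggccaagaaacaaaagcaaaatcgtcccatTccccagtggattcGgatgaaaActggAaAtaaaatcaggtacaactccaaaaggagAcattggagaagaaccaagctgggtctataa
The read length and the treatment of reads that match both genes are not given, so how reads were divided between them, or between other members and near-identical copies, was not tested. RefSeq names 4 to 137 pseudogenes for each subunit gene, with a median of 17. The 31 pseudogene rows of members in the table summed to 123, 88.4 and 119 CPM in the control samples and 131, 123 and 128 CPM in the knockdown samples. The low value is that of shControl 2, where the pseudogene RPSAP58 held 17.2 CPM against 32.2 to 34.9 CPM in the other 5 libraries. With each pseudogene's counts added to its parent, 27 large and 21 small subunit genes fell.

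shControl 2 was the highest of the 3 control samples for 23 of 46 large and 15 of 31 small subunit genes. The lowest of them was shControl 1 for 28 large and 16 small subunit genes. Without shControl 2, 23 large and 17 small subunit genes were called lower and 1 large subunit gene (RPL13A) higher, with medians of -0.09 and -0.11. The medians of both subunits thus lay below 0 with and without that library. The calls on RPL4, RPL7, RPL11, RPL14, RPL23A and RPL30 in the large subunit and on RPS7, RPS15, RPS24 and RPS29 in the small subunit were lost without it. RPS26, RPL21 and RPS27 kept their calls at smaller changes. Among the knockdown samples, shIFITM3 2 was the lowest for 20 large and 17 small subunit genes and the highest for 19 and 10. Without shIFITM3 2, the calls on 4 large and 2 small subunit genes were lost. Calls over all tested genes also dropped, from 7870 in the main test to 7124 to 7553 when 1 sample was left out.

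Features of the genes were set beside the size of their change. Across the 77 subunit genes, the log2 fold change had a Pearson r of 0.24 with exon length, -0.24 with GC content, 0.22 with average level and -0.12 with the number of pseudogenes. These correlations are over genes that share the same 6 libraries, and they are given as a description. The 49 genes with a pyrimidine run of at least 8 bases at the start had a median change of -0.09, and 29 of them fell. The 13 genes with a shorter run or none had a median of -0.14, and 11 fell. RPL12, RPL3 and RPS26, printed above, are among these 13. Of all 77 subunit genes 63.6% fell, beside 28.4% of all tested genes. The classes rest on annotated starts, with runs sought only within 10 bases of them, and 15 subunit genes had no start entry. Whether the run is related to the change was not tested.

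Some genes encode a ribosomal protein under another kind of name. FAU, which encodes RPS30 fused to a ubiquitin-like protein, fell (-0.11, SE 0.03, adjusted p = 0.00891), and so did GNB2L1, the older symbol of the 40S head protein RACK1 (-0.09, SE 0.03, adjusted p = 0.00721). RPL36AL, an expressed copy of RPL36A, did not pass (0.06, adjusted p = 0.325).

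Factors that build ribosomes also fell. Of 74 assembly factors, 60 (81.1%) fell and 1 rose, where 28.4% of all tested genes and 48.1% of the abundant ones fell. Their median was -0.26 on the log2 scale. NOP56, a core protein of the box C/D particles that methylate ribosomal RNA, fell from 316 ± 10.8 to 207 ± 4.38 CPM (SD, n = 3 each). TCOF1, which supports transcription of ribosomal DNA, fell by 0.55 on the log2 scale, NPM1 by 0.41 and NCL, the gene of nucleolin, by 0.37. Of 7 dedicated chaperones that carry new ribosomal proteins, 4 fell, among them BCCIP (-0.41), which serves RPL23, HEATR3 (-0.24), which serves RPL5, and TSR2 (-0.17), which serves RPS26, and RPS19BP1 rose (0.16). Of 77 mitochondrial ribosomal protein genes, 42 (54.5%) fell and 4 (5.19%) rose, with a median of -0.15. The largest of their changes by p were MRPL19 (-0.65), MRPL3 (-0.46), MRPL12 (-0.43) and, upward, MRPL49 (0.37). Whether these lists differ from the ribosomal protein genes was not tested.

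**Figure D4:**
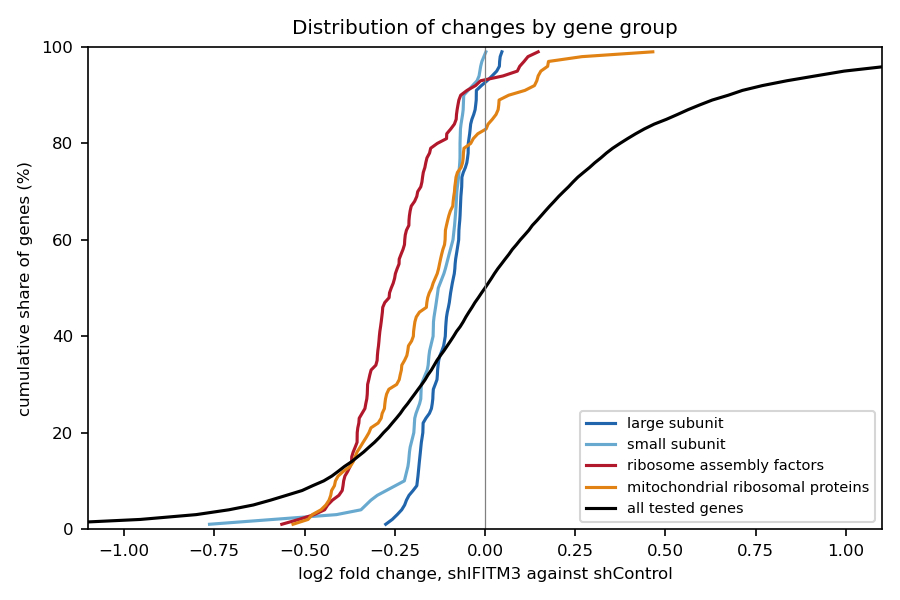
Cumulative share of genes (percent, vertical) against log2 fold change of shIFITM3 over shControl (horizontal) for the large and small subunit genes, 74 ribosome assembly factors, 77 mitochondrial ribosomal protein genes and all 14018 tested genes. The subunit genes form a narrow band just below 0 with medians of -0.09 and -0.13, the assembly factors lie further left at -0.26, and all tested genes spread widely around 0.

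Other messenger RNAs of the TOP class fell more often than they rose. Of 15, 10 (66.7%) fell and 2 rose, with a median of -0.12, where 28.4% of all tested genes fell and 27.7% rose. Of all abundant genes 48.1% fell, and of the 72 abundant subunit genes 66.7%. The elongation factor subunits EEF1B2 (-0.43) and EEF1D (-0.31), HNRNPA1 (-0.32) and the poly(A)-binding protein gene PABPC1 (-0.22) fell. TPT1 rose from 1157 ± 85.9 to 1362 ± 83.9 CPM (SD, n = 3 each, 0.24 on the log2 scale). EEF1A1 (0.02) and EEF2 (-0.01), both very abundant, did not pass the test. Of 17 genes of the mTOR pathway and its TOP regulators, 6 rose and 5 fell. EIF4EBP2, a repressor of cap-dependent translation that mTOR phosphorylates, rose (0.86), as did TSC1 (0.49) and LARP4 (0.31), while MTOR fell (-0.44). LARP1 did not pass (-0.03). In the S6 kinase family 4 of 10 genes fell (RPS6KA4, -0.26, RPS6KB2, -0.29, RPS6KA3, -0.25, and RPS6KA6, -0.57), 1 rose and RPS6KB1 did not pass (0.05). Estimates in that family ranged from -0.57 to 0.64, so the largest was upward. The shares of genes called among the mTOR pathway genes, 11 of 17, and among the S6 kinases, 5 of 10, are near the 56.1% of all tested genes.

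Genes of proliferation fell in the same samples. Of 12 such genes 10 fell, with a median of -0.53, beside 28.4% of all tested genes, and none was higher at an unadjusted p under 0.05 in edgeR or called higher by DESeq2 or limma-voom. Those that fell include TOP2A (-0.75), MKI67 (-0.68), BUB1 (-0.62) and CCNA2 (-0.62). MYC, a transcription factor known to drive ribosomal genes, did not pass the test (0.03, SE 0.04). The part of proliferation in the ribosomal protein changes was not tested.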

How the data were processed

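Messenger RNA from 3 shControl and 3 shIFITM3 samples of PC-9 was sequenced from stranded libraries. The submitters' processing notes name, without roles, hg38, HISAT2 2.2.1, featureCounts (Subread 2.0.6), FastQC 0.12.1, fastp 0.23.4 and SAMtools 1.20. Which annotation, strand and multi-read settings were used is not given in the sources used here. Values deposited by the authors are raw counts per gene symbol.

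Counts were tested with edgeR 4.0.16 (filterByExpr, TMM factors of 0.9945 to 1.006, quasi-likelihood test, Benjamini-Hochberg adjustment over 14018 genes); SEs were taken as |log2 fold change| / sqrt(F). CPM use TMM-scaled library sizes. The script was tested on simulated counts. Exon lengths are merged GENCODE 29 basic exons and include long alternative transcripts. Named genes were the 5 largest called changes per subunit in each direction, paralogs and parents, RPLP0, RPLP1, RPLP2, RPL5, RPL11, RPS6, RPSA, RPS27A, the extremes per kb and up to 4 genes of each list by p; other members named were picked after their values were seen. Members and lists were chosen with earlier results of these data known. Alternatives were other scalings and filters, DESeq2 1.42.0, limma-voom (limma 3.58.1), length and GC offsets, a replicate block, summed pseudogenes and leaving out each sample. A few genes are counted in the totals but not reported here by name or plotted singly.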

Additional observations from a re-analysis of the deposited data

How the results depend on the processing

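The number of large subunit genes called lower was 28 and ranged from 24 to 39 over the alternatives that used all samples, and from 23 to 30 when 1 sample was left out. The number of small subunit genes called lower was 21 and ranged from 17 to 28, and from 17 to 20 when 1 sample was left out. Over all tested genes, 7870 were called in the main test and 7124 to 7553 when 1 sample was left out. Calls held in all 18 alternative fits for 20 of the 28 and 14 of the 21 genes. One large subunit gene, RPL13A, was called higher without shControl 2, so that the count of higher calls ranged from 0 to 1, and 1 small subunit name (RPS27L) when paralogs were counted in. With length and GC offsets the medians were -0.1567 (large) and -0.16 (small), and with the replicate block as well -0.1561 and -0.1614, while the median of all tested genes moved to -0.062 and -0.064; the cause was not tested. RPS6 changed sign under upper-quartile scaling (-0.01047), under length and GC offsets (-0.003613) and with the block added (-0.005826), and ranged from -0.04486 to 0.05607 when 1 sample was left out. So did RPL7L1 (-0.069 to 0.006876), RPL36A (-0.4037 to 0.008147) and RPL39 (-0.05816 to 0.001434); none of the 4 was called in the main test. With a replicate block 31 large and 25 small subunit genes were called lower. How many of all tested genes were called in that fit is not given here. Deviations of samples with the same replicate number had r of 0.05, 0.07 and 0.01 over 11065 genes. Samples with different numbers had r of -0.09 to 0.05. The same-number values lay under a limit of 0.1, so the numbers were not taken as pairs. A weak pairing cannot be told from none by these values. At 21342028 counts or more per library, RPL36A, RPL17 and RPS10 are too low to show changes of the size seen in the other members.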
